A study of Mus musculus with 6 samples.

Results

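The genes described here are the lens crystallins of mouse chromosome 1, which are Cryga, Crygb, Crygc, Crygd, Cryge and Crygf of the gamma family and Cryba2 of the beta family, together with the lens gene Lgsn. They make up 8 of the 1140 complete rows, all of chromosome 1, that were analysed here for embryonic retina, and the authors tested 7 of them for a difference between groups. The genes were chosen by name after results of this same comparison were known, so their lower values in the knock-in group are a description and carry no test. The 2 groups were heterozygous C57BL/6 embryos at E15.5 (embryonic stage). The control group, called wild type by the submitters, was T2fx/+, and the other was T2Isl1/+, in which Isl1 sits at the Tbr2 locus. Each group had 3 libraries, and each library was a pool of 8 retinas. The labels do not say whether pools shared litters, nor whether any lens was left on a retina. Isl1 encodes a LIM-homeodomain transcription factor, and Tbr2 is the T-box factor Eomes. Neither gene was analysed here, so the knock-in itself was not checked.

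Crystallins are the water-soluble proteins that fill lens fibre cells and give the lens its refractive power. The beta and gamma crystallins share a fold built from Greek key motifs, and the gamma genes arose by repeated duplication, which left most of them side by side. Gamma crystallins are markers of differentiating lens fibre cells, which belong to the eye but are not part of the retina. Lgsn encodes lengsin, a relative of glutamine synthetase found in the lens.

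The stretches of DNA just before the gamma crystallin genes are shown first, because they hold a feature the genes have in common that played no part in choosing them. Each is the 100 bases before the RefSeq gene start (GRCm38, which is mm10), read 5′ to 3′ on the strand of the gene. Capitals mark an 8-base box, CTTTTGTG (CTTTGTG in Crygb), and the TATATA letters near the start, in the gamma genes. Cryba2 is shown for contrast.
Cryge, chr1:65051164-65051263, minus strand: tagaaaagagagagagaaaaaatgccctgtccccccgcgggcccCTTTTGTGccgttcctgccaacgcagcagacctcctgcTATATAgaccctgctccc
Crygd, chr1:65063441-65063540, minus strand: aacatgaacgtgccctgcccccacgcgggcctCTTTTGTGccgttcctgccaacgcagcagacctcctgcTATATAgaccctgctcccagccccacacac
Crygb, chr1:65082291-65082390, minus strand: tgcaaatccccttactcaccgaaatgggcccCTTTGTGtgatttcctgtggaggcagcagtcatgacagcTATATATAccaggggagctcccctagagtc
Cryga, chr1:65103364-65103463, minus strand: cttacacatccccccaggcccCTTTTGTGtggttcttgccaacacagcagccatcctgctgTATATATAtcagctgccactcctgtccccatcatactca
Crygf, chr1:65926422-65926521, plus strand: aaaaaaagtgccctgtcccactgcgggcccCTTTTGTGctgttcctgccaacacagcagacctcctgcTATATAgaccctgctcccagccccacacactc
Cryba2, chr1:74893144-74893243, minus strand: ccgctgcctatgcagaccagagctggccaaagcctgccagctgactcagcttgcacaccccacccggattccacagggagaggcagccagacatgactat

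All 6 gamma genes carried both marked features, and the box and TATATA lay at nearly one spacing from each other. Their distance from the gene start varied more, with TATATA from 18 bases (Cryge) to 39 bases (Cryga) before it. From the end of the box to the start of TATATA there were 30 bases in Cryge, Crygd and Crygf, 29 in Crygc and 32 in Cryga and Crygb. The Crygc window, at chr1:65073533-65073632 on the minus strand, has the box 66 bases and TATATA 29 bases before the start. It is not printed because a longer Crygc transcript in GENCODE runs through it. The GENCODE bounds of Crygd (to 65063452), Cryga (to 65103373) and Crygf (from 65926520) also reach into the near end of their printed windows. The printed Cryga window also lies within the bounds of a GENCODE gene, the protein-coding Gm28845 (65100619 to 65119558) on the same strand. Among 32851 RefSeq promoters, 0.46% had CTTTTGTG on either strand within these 100 bases, 2.29% had CTTTGTG and 2.19% had TATATA, which is its own reverse complement. Either form of the box together with TATATA on the gene's strand occurred in 14 promoters of 14 symbols, and 6 of these were the gamma crystallins. The letters were picked by reading these promoters, so that count describes the family and tests nothing. Cryba2 and Lgsn had neither the 8-base box nor TATATA in the 250 bases before the start, and Lgsn had the shorter CTTTGTG there.

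None of the motifs listed in the analysis plan was present for all members or for all gamma genes. On both strands over the 250 bases before the start, the MAF core TGCTGA was present for Cryga, Crygc, Cryba2 and Lgsn, against 16.1% of all promoters. The SOX core ACAAAG was present for Cryga, Crygb and Lgsn, against 16.5% of all promoters. In Crygb it lies inside the marked box, read on the other strand. TATAAA was present for Lgsn alone (12.4% of all promoters) and TTCACGC for no member (1.03% of all promoters). These matches describe letters only.

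The 7 crystallins with a value were far lower in T2Isl1 than in T2fx, and together they kept 9.02% of the control level. The sum over the 7 genes was 1038 FPKM (fragments scaled to transcript length and to all mapped fragments of a library) in T2fx and 93.6 FPKM in T2Isl1, an 11.1-fold difference, from values the authors deposited. In the authors' deposited table all 7 were lower, at the smallest q-value there, 0.0116. All 10 called rows shared that q-value, so it does not rank the crystallins above the others. Across all rows, 1.39% of the 646 tested rows were called lower at a q-value under 0.05, and 1.55% in either direction. Since the members were chosen on this contrast, nothing is read from their count. The median log2 fold change was -3.28 over the 7 genes and 0.01 over all tested rows. Each group has a single combined value per gene, so no error or replicate check could be given. In these bulk samples fewer cells with crystallin RNA and less of it per cell cannot be told apart. Which cells the RNA came from was not tested.

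**Figure D1:**
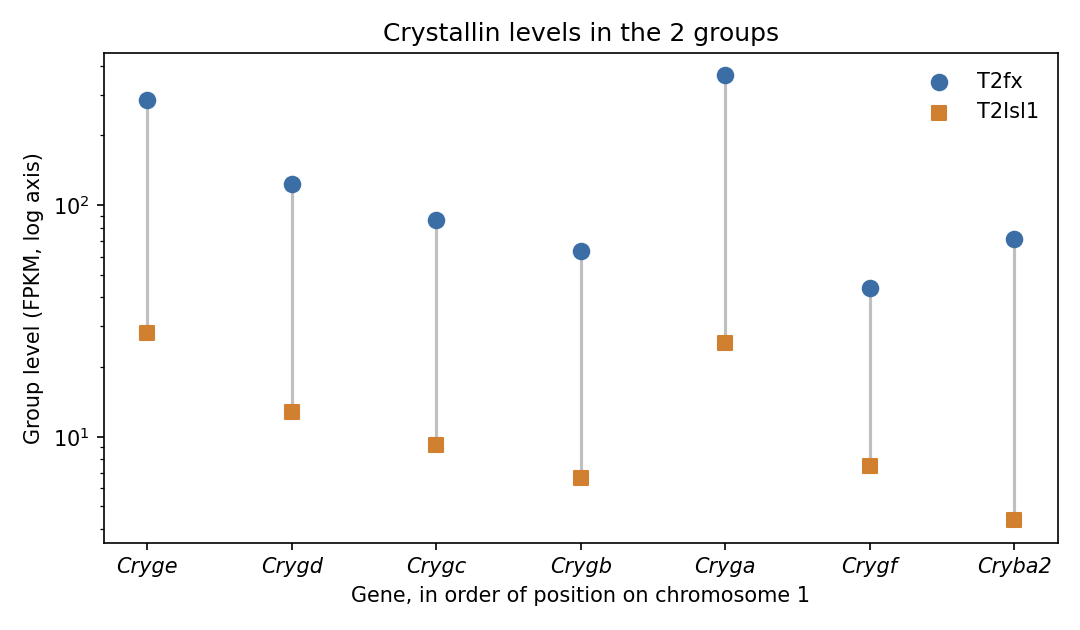
Group level of each crystallin (FPKM, log axis) in T2fx (circles) and T2Isl1 (squares), 1 combined value per group, with genes in order of position on chromosome 1. Cryga leads in T2fx at 364 FPKM and Cryge leads in T2Isl1 at 27.9 FPKM.

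Along the chromosome the gamma cluster runs Cryge, Crygd, Crygc, Crygb and Cryga, all on the minus strand. Between the table's gene ends there were 10.7 kb from Cryge to Crygd, 8.08 kb from Crygd to Crygc, 6.69 kb from Crygc to Crygb and 18.1 kb from Crygb to Cryga. Crygf lies 823 kb beyond Cryga on the plus strand, and Cryba2 a further 8962 kb on. Each gamma gene has 3 exons, and its coding sequence is 522 bases (525 in Crygb). Cryba2 has 5 exons and a coding sequence of 591 bases in GENCODE M21. The gene starts in the table equalled the RefSeq starts to the base for all 7 genes.

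The highest levels were at the ends of the cluster. Cryge, at its left end (65048557 to 65051163), had 285 FPKM in T2fx and 27.9 FPKM in T2Isl1 in the authors' deposited table. Cryga, at its right end (65100389 to 65103363), had 364 FPKM in T2fx and 25.3 FPKM in T2Isl1 in the authors' deposited table. These 2 genes held 62.5% of the summed level in T2fx and 56.9% in T2Isl1. In T2Isl1 the order of the pair was turned, with Cryge 1.10-fold above Cryga, where in T2fx it was 0.78-fold.

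From Cryge through Crygb the level fell with each gene in both groups. Crygd (65061838 to 65063440) had 123 FPKM in T2fx and 12.7 FPKM in T2Isl1 in the authors' deposited table. Crygc (65071525 to 65073532) had 86.7 FPKM in T2fx and 9.25 FPKM in T2Isl1 in the authors' deposited table. Crygb (65080222 to 65082290) had 63.4 FPKM in T2fx and 6.60 FPKM in T2Isl1 in the authors' deposited table. Thus these neighbours kept one order, Cryge, Crygd, Crygc and Crygb, in both genotypes.

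The 2 crystallins away from the cluster stood at the extremes of the change. Crygf (65926522 to 65928304) had 43.9 FPKM in T2fx, the lowest of the 7, and 7.44 FPKM in T2Isl1 in the authors' deposited table. It kept 16.9% of its control level. Cryba2 (74889934 to 74893143) had 71.3 FPKM in T2fx and 4.35 FPKM in T2Isl1, the lowest of the 7 there, in the authors' deposited table. It kept 6.10%, and Cryga, the next lowest, 6.95%.

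Lgsn was listed at 0 FPKM in both groups in the authors' deposited table and was not tested. Its row covers a joint locus (31141078 to 31222656) that is wider than the gene itself (31176401 to 31204725, plus strand). The gene 4931428L18Rik overlaps it on the other strand and was also listed at 0 in both groups in the authors' deposited table. Rows at 0 in both groups numbered 216 of the 1140, so a 0 is common. Any remaining RNA of Lgsn is not bounded by it, because the depth is unknown.

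In rank among the 646 tested rows the crystallins moved from the most abundant transcripts to ranks between 147 and 469. Cryga went from rank 6 in T2fx to rank 166 in T2Isl1, and Cryge from rank 9 to rank 147. Crygd went from 21 to 288, Crygc from 33 to 354 and Crygb from 58 to 410. Crygf went from 90 to 384 and Cryba2 from 48 to 469. Every one of the 7 was in the first 100 in T2fx, and none was in T2Isl1.

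The mix of crystallins was similar but not the same in the 2 groups. A shift of 10.3 percentage points, the summed gain of the genes whose share rose, separated the mixes. Cryga gave 35.1% of the sum in T2fx and 27.0% in T2Isl1, the largest move of any member at -8.03 points. Cryba2 went from 6.88% to 4.65%. The other 5 gained share: Crygf from 4.23% to 7.95%, Cryge from 27.5% to 29.8%, Crygd from 11.9% to 13.6%, Crygc from 8.35% to 9.88% and Crygb from 6.11% to 7.05%. Shares weighted by transcript length, which count fragments rather than molecules, gave the same shift of 10.3 points.

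**Figure D2:**
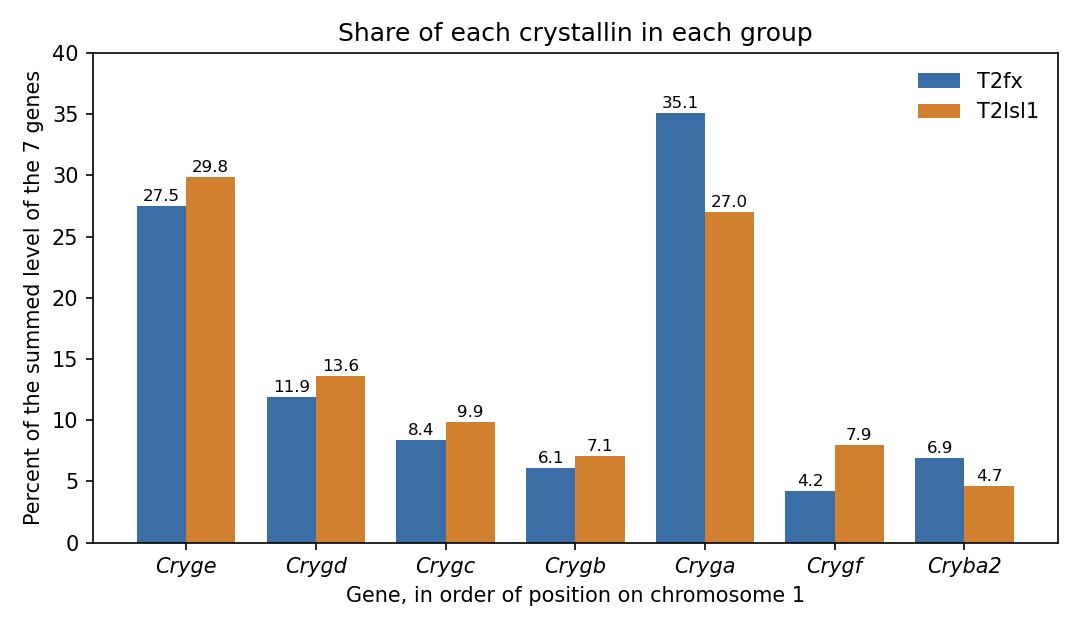
Percent of the summed level of the 7 crystallins contributed by each gene in T2fx and T2Isl1, with 1 combined value per group and no error. Cryga and Cryba2 lose share in T2Isl1, and the other 5 genes gain it.

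Within the cluster, Crygb, Crygc, Crygd and Cryge had nearly the same proportions in both groups. Of their own sum, Cryge made up 51.0% in T2fx and 49.4% in T2Isl1, and Crygd 22.1% and 22.5%. Crygc made up 15.52% and 16.4%, and Crygb 11.4% and 11.7%. Their fold changes lay between 9.37 (Crygc) and 10.2 (Cryge), so no ratio between any 2 of them moved by more than 1.09-fold. This set of 4 neighbours was singled out after its values were seen. Cryga, the fifth gene of the cluster, stood apart from them at 14.4-fold.

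Over all 21 pairs of the 7 genes, the ratio of the 2 levels moved by less than 1.1-fold in 6 pairs, all of them among these 4 genes. It moved by less than 1.5-fold in 10 pairs and by more than 2-fold in 2. Both of the latter involved Crygf: its ratio to Cryba2 moved 2.77-fold and its ratio to Cryga 2.43-fold. The order of the 2 levels was the same in both groups in 17 pairs and turned in 4. The pairs that turned were Cryge with Cryga, Crygb with Crygf, Crygb with Cryba2, and Crygf with Cryba2. Without replicate values it was not tested whether any of these ratios differed beyond the spread between libraries.

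The gamma genes are close copies of each other, which bears on how reads are divided among them. Across the 15 gamma pairs the coding sequences were 79.3% to 98.1% identical (median 83.0%). Cryge and Crygf were the closest pair at 98.1%, and Cryge and Crygd had 91.6%. Cryba2 was 48.4% to 52.2% identical to the gamma genes. The 250 bases before the start were also most alike for Cryge and Crygf, at 80.7%, and 50.2% to 65.6% identical in the other gamma pairs.

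Identical stretches show which genes could exchange reads. In Cryge, 56.9% of all 50-base stretches of the transcript also occur in another of the 7 transcripts, and the gene most shared with was Crygf. The share was 34.9% in Crygf and 34.0% in Crygd, both most shared with Cryge. It was 29.4% in Crygb and 24.0% in Crygc, which shared 172 stretches with each other. Cryga had 5.73% and Cryba2 had 0%. At 100 bases the shares were 27.1% in Cryge, 22.8% in Crygb, 17.8% in Crygc, 15.8% in Crygd, 11.9% in Crygf and 0% in Cryga. Crygf shared more of its stretches than Crygd, Crygb or Crygc at 50 bases, and less than each of them at 100 bases. The share of the sum moved by 3.71 points in Crygf, 1.70 in Crygd, 0.94 in Crygb and 1.53 in Crygc. Cryge, with the most shared stretches at both lengths, moved by 2.38 points. Cryga, with the fewest of the gamma genes, moved by -8.03 points. Moves in points depend on the size of a gene's share, and by percent of the control level kept the order differed. Crygf kept 16.9%, Crygc 10.7%, Crygb 10.4%, Crygd 10.3%, Cryge 9.80% and Cryga 6.95%. The part of read sharing in these proportions was not tested, and the sources used here do not give the read length or the handling of multiply mapped reads. Moving reads from one of the 7 genes to another would change their sum only through the gene lengths. Cryga also overlaps Gm28845 on the same strand over 2755 bases of its gene.

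**Figure D3:**
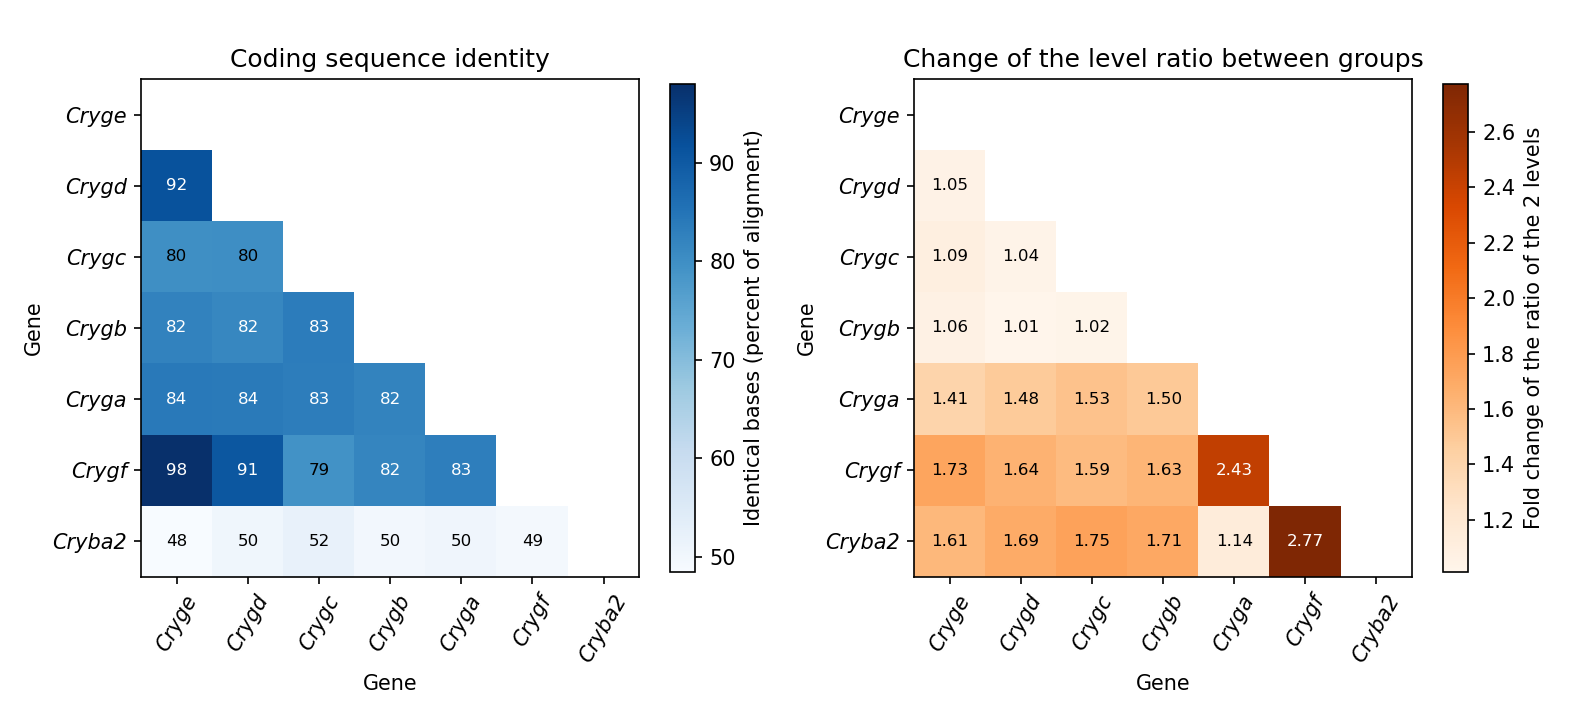
Left, percent identity of the coding sequences for each pair of crystallin genes. Right, the fold by which the ratio of the 2 group levels (FPKM) moved between T2fx and T2Isl1. The pairs among Cryge, Crygd, Crygc and Crygb are palest on the right, at 1.01 to 1.09, while the closest pair by sequence, Cryge and Crygf, moved 1.73-fold.

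Tested genes around the crystallins were near their control values. Within 500 kb of a member, 37 other rows were tested and 0 were called at a q-value under 0.05 or had an unadjusted p under 0.05 in the authors' deposited table. Among all 646 tested rows, 1.55% were called in either direction, the crystallins included. A count of 0 called among 37 is near that share and is not read as a result about the region. The smallest p of the 37 rows was 0.0946, for Nhej1. The log2 fold changes of these rows ran from -0.49 (Plcd4) to 0.45 (Nhej1) with a median of 0.02, and 19 were above control. Around the gamma cluster the 8 tested rows ran from -0.10 for Plekhm3 to 0.17 for Ccnyl1. Idh1, which encodes a cytosolic isocitrate dehydrogenase 55.3 kb from the cluster, had 156 FPKM in T2fx and 164 FPKM in T2Isl1 in the authors' deposited table. The Wnt receptor gene Fzd5, on the other side, had 68.0 FPKM in T2fx and 66.2 in T2Isl1 (the authors' deposited table). Map2, encoding a microtubule protein of neurons, was the only analysed row within 500 kb of Crygf, at 55.5 FPKM in T2fx and 52.3 in T2Isl1 (the authors' deposited table).

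The untested rows within 500 kb went both ways. Of 19 such rows, 6 were lower in T2Isl1, 5 were higher and 8 were listed at 0 in both groups, and none exceeded 0.408 FPKM in either group. D630023F18Rik, 1.92 kb beyond Cryga and the nearest row to the cluster, had 0.161 FPKM in T2fx and 0.0181 FPKM in T2Isl1 in the authors' deposited table. Fev, 4.53 kb from Cryba2, had 0.0255 FPKM in T2fx and 0.0336 in T2Isl1 (the authors' deposited table). Ccdc108, 8.94 kb from Cryba2 on the other side, had 0.009 FPKM in T2fx and 0.019 in T2Isl1 (the authors' deposited table). Farther out, Wnt6, 105 kb from Cryba2, had 0.390 FPKM in T2fx and 0.0241 in T2Isl1, a log2 fold change of -4.02 (the authors' deposited table). D630023F18Rik, Fev and Ccdc108 are the nearest untested rows with a value above 0. All of these rows were named after their values were seen and are too low for a direction to be read.

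**Figure D4:**
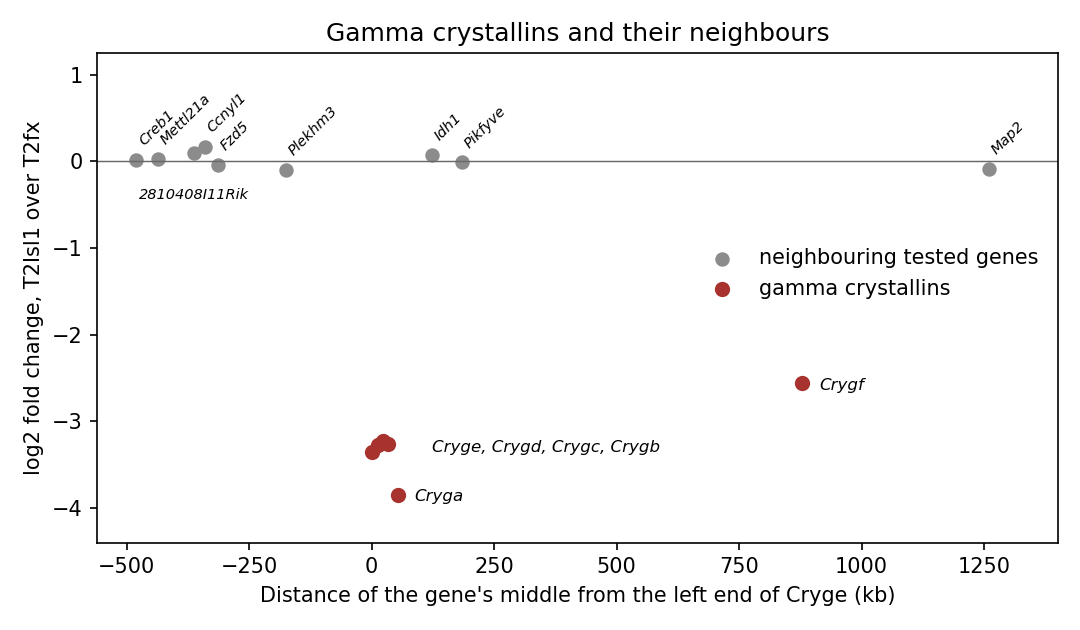
Log2 fold change (T2Isl1 over T2fx) of the gamma crystallins and of the tested genes within 500 kb, against distance in kb from the left end of Cryge. The 6 gamma genes lie between -3.85 and -2.56, and their 9 tested neighbours between -0.10 and 0.17.

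Other genes of like abundance moved little. At at least 20 FPKM in T2fx there were 196 other tested rows, and their log2 fold changes ran from -0.20 for Cntn2 to 0.33 for Mrpl30 (SD over genes 0.09). Each of the 7 crystallins was above that level in T2fx. Hes6, a neurogenic factor and the next row above Cryga in level, had 380 FPKM in T2fx and 414 in T2Isl1 (the authors' deposited table). Snrpe, a spliceosome component and the next below, had 330 FPKM in T2fx and 363 in T2Isl1 (the authors' deposited table). Beside Crygf, the axonal adhesion gene Cntn2 had 43.6 FPKM in T2fx and 38.0 in T2Isl1, and the cap-binding protein gene Eif4e2 had 44.4 in T2fx and 46.6 in T2Isl1 (the authors' deposited table).

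The 5 other tested rows whose ratio between the 2 groups was nearest to that of the summed crystallins were all far less abundant. They were Twist2, Chil1, Col3a1, Tnni1 and Chrng, with distances of 0.20 to 1.04 on the log2 scale from the ratio of the sums. Likeness over 2 groups is a single ratio and says nothing of shared control. Col3a1, a collagen chain of connective tissue, was called, with 5.76 FPKM in T2fx and 0.637 in T2Isl1 (the authors' deposited table). The mesenchymal factor gene Twist2 had 0.677 FPKM in T2fx and 0.0703 in T2Isl1, at q = 0.623 (the authors' deposited table). The chitinase-like gene Chil1 had 0.915 FPKM in T2fx and 0.0679 in T2Isl1, at q = 0.511 (the authors' deposited table). The slow muscle troponin gene Tnni1 had 0.917 FPKM in T2fx and 0.143 in T2Isl1 and was not called (the authors' deposited table). Chrng, a subunit of the fetal muscle acetylcholine receptor, was called, with 1.62 FPKM in T2fx and 0.300 in T2Isl1 (the authors' deposited table). The 1 other called row, the raftlin gene Rftn2, was higher in T2Isl1, with 7.84 FPKM in T2fx and 14.1 in T2Isl1 (the authors' deposited table).

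**Figure D5:**
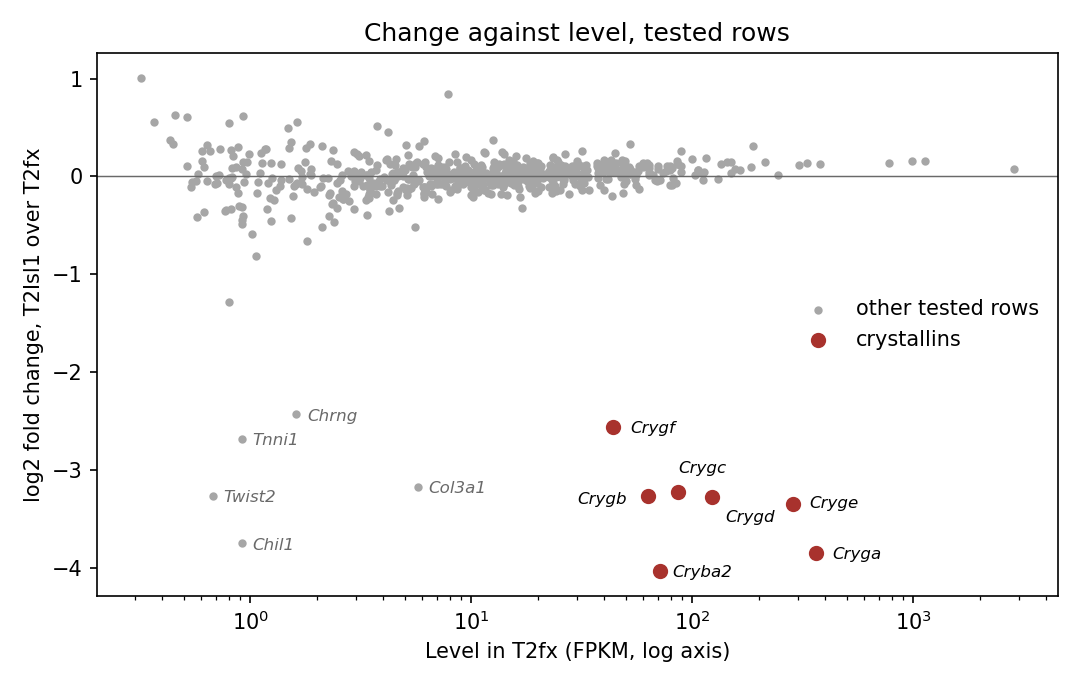
Log2 fold change (T2Isl1 over T2fx) against level in T2fx (FPKM, log axis) for the 646 tested rows, 1 point per row. The 7 crystallins lie between -4.03 and -2.56 at 43.9 to 364 FPKM, where no other row is below -0.20.

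Some markers of other tissues were lower in T2Isl1 and others were near their control values. The lists were chosen with earlier results of these data known. Col3a1, Twist2 and Chrng were already named above by their ratio or call, so their lower values here are no separate evidence. Among all 646 tested rows, 10 (1.55%) were called in either direction, the crystallins included. Counts of called rows in lists this short are therefore not read as results about the markers. Of the 8 connective tissue and vessel markers, 6 had a row and were tested, and 1 (Col3a1) was called, lower. Their summed level was 38.1 FPKM in T2fx and 29.3 FPKM in T2Isl1 (1.30-fold), from the authors' deposited table. The median log2 fold change of the 6 was -0.34. The lower values were Twist2 at -3.27 (unadjusted p = 0.00555), Col3a1 at -3.18 (5e-05), the fibrillar collagen gene Col5a2 at -0.52 (0.0003, q = 0.0588) and Fn1 at -0.17 (0.176) on the log2 scale, with the authors' p-values. Rgs5 was at -0.07 and Cd34 at 0.04. Of the 6 skeletal muscle markers, 5 had a row, 2 were tested and 1 (Chrng) was called, lower. Their sum was 2.96 and 0.986 FPKM (3.01-fold), and Chrnd was listed at 0 in both groups, from the authors' deposited table. The 5 pigment epithelium markers were not analysed here. Of the 10 retinal markers, 6 had a row and 0 were called at a q-value under 0.05. Their sum was 521 and 549 FPKM from the authors' deposited table, and their log2 fold changes ran from -0.32 for Tfap2b, which alone had an unadjusted p under 0.05 (0.008), to 0.12 for Hes6. The part of tissue around the retina in the crystallin values was not tested.

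Of 41 other lens genes on a list of crystallins, fibre cell membrane and filament proteins and lens regulators, 2 had a row. These were the basement membrane collagens Col4a3 and Col4a4, both under 0.1 FPKM in each group and untested in the authors' deposited table. The alpha crystallins, the other beta crystallins and the lens regulators were not analysed here.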

How the data were processed

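The 6 libraries of total RNA were represented by 1 deposited gene table. Per the submitters' processing notes, the tools were TopHat2 2.1.1, Cufflinks 2.1.1 and CASAVA, with the mm10 build. The sources used here do not name the gene annotation. The authors deposited 1 combined value per gene and group, read as FPKM because the layout is that of Cuffdiff; the file headers say only value. The log2 fold change (T2Isl1 over T2fx, no pseudocount), the p-value and q-value and the test score are also the authors', per the file headers. The test score was not used. For the members the log2 value matched the ratio of the group values to within 2.8e-06. A gene is called changed at a q-value under 0.05. No values per library were used, so no test over libraries was made and depth is unknown.

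The rows analysed were 1140 complete rows of chromosome 1, and 1 incomplete row was left out. Starts in the table count from 0 and 1 was added. Sums, shares and ratios were computed with pandas 2.3.3, after the share calculation was checked on simulated data. Promoters came from RefSeq (GRCm38.p6), with all 8 members matched. Transcripts and exons came from GENCODE M21 (the first coding transcript of each gene). Identity was taken from global alignment with Biopython 1.88 (match 1, mismatch -1, gap opening -3, extension -0.5) over the aligned length. Genes named were the members, their neighbours within 500 kb, the listed markers, the rows next in level to Cryga and Crygf, the 5 rows of most like ratio and the called rows. The members and lists were chosen with earlier results of these data known.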

Additional observations from a re-analysis of the deposited data

How the results depend on the processing

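With a q-value under 0.01, 0 of the 7 crystallins were called lower. No row at all could pass that limit, because 0.0116, shared by 10 rows, was the smallest q-value, so this setting says nothing about the crystallins. A 2-fold minimum or a floor of 5 FPKM in the higher group left 7. The 11.1-fold difference of the sums became 10.8-fold with the gamma crystallins alone, 9.87-fold without Cryga, the most abundant member, and 10.4-fold with 1 FPKM added to each value. The shift between the mixes, 10.3 points, became 9.30 points with the gamma crystallins alone and 5.61 points without Cryga. In subsets chosen after seeing the data, the 5 clustered gamma genes gave 11.3-fold and 8.52 points, and Crygb, Crygc, Crygd and Cryge alone gave 9.88-fold and 1.60 points. These values follow from which genes were summed. For single genes, adding 1 FPKM or centring on the median of all tested rows (0.01 on the log2 scale) could not turn a direction and says nothing about stability. No paired analysis was possible because the libraries of each group were combined by the authors. The depth of the libraries and the spread between them could not be read from it, so neither limits nor errors could be set.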
